A study of Mus musculus with 12 samples.

Results

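The genes described here are 10 genes of neutrophil granules, measured in whole mouse bone marrow: Mpo, Elane, Prtn3 and Ctsg of the primary granules, Ltf, Camp, Ngp, Lcn2 and Mmp8 of the later granules, and Cebpe, a transcription factor of granule formation. They were chosen by name from the 19938 genes that an array row with a single symbol measured, and each of the 10 had 1 such row. The marrow came from B6 mice and was flushed from the long bones, and total RNA was hybridised to 12 whole-transcript arrays, 3 for each of 4 groups. Irradiated PTH mice received a sub-lethal dose of 2 fractions of 310 cGy at 10 days of age and then parathyroid hormone (PTH), a hormone of calcium balance that acts on bone cells, for 5 days from day 11 to day 15, beginning 24 hours after irradiation. Irradiated vehicle mice received the same irradiation and vehicle on the same days. Nonirradiated PTH mice received the hormone alone and nonirradiated vehicle mice received vehicle alone. All marrow was taken at 16 days of age. Whether each array holds RNA of its own mouse, or of pooled mice, is not stated in the labels, and the p-values below therefore speak only of the spread among these arrays, part of which may be technical.

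Neutrophils are made in the marrow from granulocyte-monocyte progenitors and fill their granules in sequence. Promyelocytes load primary, or azurophil, granules with myeloperoxidase and serine proteases. Myelocytes and metamyelocytes then make the specific granules, with lactoferrin, cathelicidin, lipocalin and collagenase, and the last stages make gelatinase granules and surface receptors. Messenger RNA of primary granule proteins is switched off as cells leave the promyelocyte stage, so the primary genes mark early precursors and the later genes mark maturing cells. The factors PU.1, C/EBP alpha, RUNX1 and MYB act on primary granule genes, and C/EBP epsilon, the product of Cebpe, is required for specific granules in mouse and human.

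The promoters of 9 members were found in RefSeq's table for assembly GRCm38.p6, and Cebpe had no entry. They are shown for the short factor motifs that they carry just before the start of transcription, in which the primary and later genes differ only in part. The 250 bases before the start were searched on both strands for GAGGAAG (PU.1), TTNNGNAA (C/EBP), TGTGGT (RUNX) and AACNG (MYB). GAGGAAG was found in 6 of the 9 promoters, namely all 4 primary genes, Lcn2 and Mmp8, against 10.6% of 32851 promoter windows of all genes. TTNNGNAA was found in 4 of the 9, namely Ltf, Ngp, Lcn2 and Mmp8 and so in 0 of the 4 primary genes, against 36.8% of all windows. TGTGGT was found in 1 of the 9, Ctsg, against 14% of all windows. AACNG was found in 9 of the 9, against 74.2% of all windows, and it overlapped TTNNGNAA in Lcn2 and Mmp8. Camp had neither GAGGAAG nor TTNNGNAA. A difference between primary and later genes was not tested. A match is only a run of letters and not a measured binding site. Looser forms of these motifs were not searched, so each count, also that of 0, holds only for the letters given. The windows of the 4 primary genes and of Ltf and Ngp, the pair of later genes with TTNNGNAA and without GAGGAAG, are given 5′ to 3′ on the strand of the gene and end at the base before the start, with matches to GAGGAAG and TTNNGNAA in capitals. They lie at chr11:87793534-87793783 (Mpo, plus strand), chr10:79886062-79886311 (Elane, plus strand), chr10:79879417-79879666 (Prtn3, plus strand), chr14:56102575-56102824 (Ctsg, minus strand), chr9:111019042-111019291 (Ltf, plus strand) and chr9:110419558-110419807 (Ngp, plus strand). Elane and Prtn3 are neighbours on chromosome 10, and Ltf, Camp, Ngp and Mmp8 all lie on chromosome 9.
Mpo: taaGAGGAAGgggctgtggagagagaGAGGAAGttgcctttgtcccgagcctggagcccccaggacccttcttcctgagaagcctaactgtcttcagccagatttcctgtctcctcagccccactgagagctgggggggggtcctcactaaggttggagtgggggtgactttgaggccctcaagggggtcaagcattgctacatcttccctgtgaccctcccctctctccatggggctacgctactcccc
Elane: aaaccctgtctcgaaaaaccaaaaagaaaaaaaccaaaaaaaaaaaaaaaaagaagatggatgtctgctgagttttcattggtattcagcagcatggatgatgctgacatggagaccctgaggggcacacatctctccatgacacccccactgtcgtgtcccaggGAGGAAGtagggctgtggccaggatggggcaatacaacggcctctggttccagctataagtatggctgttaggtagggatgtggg
Prtn3: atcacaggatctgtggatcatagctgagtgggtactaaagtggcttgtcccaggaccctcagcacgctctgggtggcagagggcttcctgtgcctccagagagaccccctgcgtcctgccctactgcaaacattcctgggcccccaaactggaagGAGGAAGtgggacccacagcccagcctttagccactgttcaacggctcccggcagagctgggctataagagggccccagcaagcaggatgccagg
Ctsg: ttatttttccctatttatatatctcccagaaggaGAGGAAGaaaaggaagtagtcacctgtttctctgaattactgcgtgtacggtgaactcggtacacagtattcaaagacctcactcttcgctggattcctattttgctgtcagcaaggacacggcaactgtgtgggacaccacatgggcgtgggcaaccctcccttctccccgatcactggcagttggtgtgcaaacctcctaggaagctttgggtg
Ltf: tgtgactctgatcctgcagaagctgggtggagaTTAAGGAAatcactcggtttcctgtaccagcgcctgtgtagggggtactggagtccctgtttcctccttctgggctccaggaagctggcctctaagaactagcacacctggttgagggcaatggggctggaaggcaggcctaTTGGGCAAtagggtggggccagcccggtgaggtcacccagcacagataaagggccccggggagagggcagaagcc
Ngp: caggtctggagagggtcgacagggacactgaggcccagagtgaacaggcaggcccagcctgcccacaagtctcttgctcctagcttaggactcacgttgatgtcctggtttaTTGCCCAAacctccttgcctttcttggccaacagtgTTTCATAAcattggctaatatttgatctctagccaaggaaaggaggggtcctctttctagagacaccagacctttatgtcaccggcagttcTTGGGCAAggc

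Values are log2 expression, so a difference of 1 is a doubling, and their precision is set by having 3 arrays a group. Array medians over all genes lay between 6.38 and 6.53. The mean of 6 neutrophil markers lay at 10.04 to 10.75 in irradiated PTH marrow, 10.31 to 10.71 in irradiated vehicle marrow, 11.12 to 11.29 in nonirradiated PTH marrow and 10.88 to 11.09 in nonirradiated vehicle marrow, so every irradiated array was below every nonirradiated array. Of these 6 markers, 4 had negative and 2 had positive differences, up to 0.23, for irradiation averaged over both treatments. Limma called 2 of them lower (Csf3r and Ly6g), as it did 3.59% of all genes. The part of this difference in the results on granule genes was not tested. The mean of 5 erythroid markers lay at 10.41 to 11.21 over all arrays, with overlap of the groups. Both irradiated PTH replicate 3 and nonirradiated vehicle replicate 3 had a narrow spread of values, with interquartile ranges of 2.66 and 2.63 against 2.999 to 3.14 on the other arrays. Of these 2 arrays, irradiated PTH replicate 3 was also the extreme array of the first principal component (39.6% of variance). Xist and Y-linked genes gave a female pattern on 1 of 3 arrays in the irradiated PTH group, 1 of 3 in the irradiated vehicle group, 3 of 3 in the nonirradiated PTH group and 0 of 3 in the nonirradiated vehicle group. Within nonirradiated mice, PTH and sex therefore cannot be told apart. The pattern was also uneven between irradiated and nonirradiated arrays of each treatment. Only the irradiated groups hold both patterns, so a sex term takes its size from their arrays alone.

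Irradiation was tested with limma across all 19938 genes, in each treatment and averaged over both, with Benjamini-Hochberg adjustment and a threshold of 0.05. No member passed in any of these 3 contrasts: 0 of 10 were called in PTH-treated mice, where 2.43% of all genes were called, 0 of 10 in vehicle-treated mice, where 2.22% were called, and 0 of 10 in the average, where 6.1% were called. At an unadjusted p under 0.05, 3 members passed in PTH-treated mice (Mpo, Elane and Mmp8; 13.4% of all genes), 0 in vehicle-treated mice (13.3% of all genes) and 2 in the average (Elane and Mmp8; 17.3% of all genes). Among members, 2 lay without overlap in PTH-treated mice (Elane and Mmp8, both lower; 8.93% of all genes were higher and 10.9% lower without overlap) and 2 in vehicle-treated mice (Lcn2 higher and Mmp8 lower; 8.95% and 9.83% of all genes). Over all 6 irradiated and 6 nonirradiated arrays 0 members were without overlap, against 1.69% of all genes higher and 2.8% lower. In a bulk sample, fewer cells of a type and less RNA per cell cannot be told apart.

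**Figure D1:**
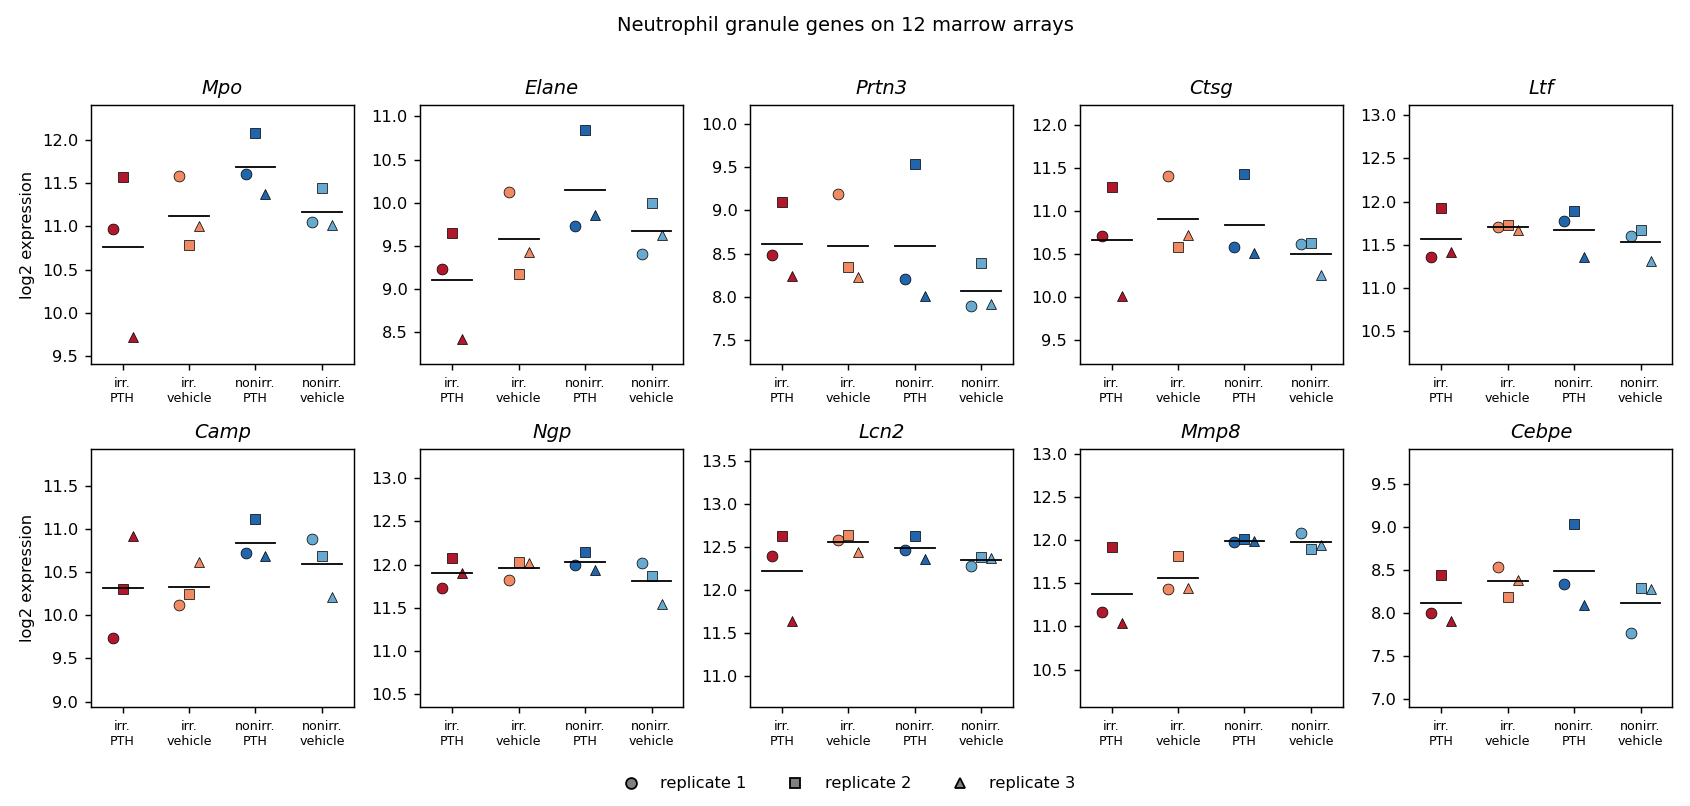
Log2 expression of the 10 granule genes on the 12 arrays, with 1 symbol per array, symbol shape for the replicate number and a line at each group mean; every vertical axis spans the same range of log2 values. The 4 primary genes in the upper row scatter widely within groups, while Mmp8 lies between 11.04 and 11.92 on irradiated arrays and between 11.90 and 12.08 on nonirradiated arrays.

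Mpo encodes myeloperoxidase, the haem enzyme of azurophil granules that makes hypochlorous acid. It was at 10.97, 11.58 and 9.72 in irradiated PTH marrow, at 11.58, 10.79 and 10.9998 in irradiated vehicle marrow, at 11.61, 12.09 and 11.37 in nonirradiated PTH marrow and at 11.05, 11.44 and 11.02 in nonirradiated vehicle marrow. The highest value lay in nonirradiated PTH marrow and the lowest was irradiated PTH replicate 3, and the groups overlapped. The difference for irradiation was -0.93 in PTH-treated mice (95% interval -1.77 to -0.09, adjusted p = 0.311, limma) and -0.05 in vehicle-treated mice (-0.89 to 0.79, adjusted p = 0.975, limma). Without irradiated PTH replicate 3, the difference for Mpo in PTH-treated mice was -0.41 (adjusted p = 0.786, limma). With a sex term it was -0.60.

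Elane encodes neutrophil elastase, a serine protease whose human gene is mutated in congenital and cyclic neutropenia. Its values were 9.23, 9.65 and 8.42 in irradiated PTH marrow, 10.13, 9.17 and 9.43 in irradiated vehicle marrow, 9.73, 10.85 and 9.86 in nonirradiated PTH marrow and 9.41, 9.99 and 9.62 in nonirradiated vehicle marrow. All 3 irradiated PTH arrays lay below all 3 nonirradiated PTH arrays, a pattern that 10.9% of all genes showed, and the vehicle groups overlapped. The difference was -1.04 in PTH-treated mice (95% interval -1.83 to -0.25, adjusted p = 0.204, limma) and -0.10 in vehicle-treated mice (adjusted p = 0.936, limma). Without irradiated PTH replicate 3, Elane differed by -0.70 in PTH-treated mice (adjusted p = 0.554, limma). With all arrays and a sex term Elane also differed by -0.70 there.

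Prtn3 encodes proteinase 3, another of the azurophil serine proteases and the neighbour of Elane. It was at 8.49, 9.10 and 8.23 in irradiated PTH marrow, 9.18, 8.34 and 8.23 in irradiated vehicle marrow, 8.21, 9.54 and 8.005 in nonirradiated PTH marrow and 7.90, 8.40 and 7.91 in nonirradiated vehicle marrow. In each group 1 array stood above the other 2, and the groups overlapped. The differences were 0.02 in PTH-treated mice (adjusted p = 0.988, limma) and 0.52 in vehicle-treated mice (95% interval -0.32 to 1.36, adjusted p = 0.628, limma). The vehicle difference of Prtn3 was the largest positive one of any member for irradiation.

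Ctsg encodes cathepsin G, a chymotrypsin-like protease of the same granules. Its values were 10.71, 11.27 and 10.02 in irradiated PTH marrow, 11.41, 10.59 and 10.72 in irradiated vehicle marrow, 10.58, 11.43 and 10.51 in nonirradiated PTH marrow and 10.62, 10.63 and 10.26 in nonirradiated vehicle marrow. The groups overlapped in both treatments. Irradiation differed by -0.17 in PTH-treated mice and by 0.40 in vehicle-treated mice (adjusted p = 0.670, limma, for the vehicle difference). Over the 4 primary genes, the median difference was -0.55 in PTH-treated mice, against 0.01 over all genes, and 0.18 in vehicle-treated mice, against -0.03 over all genes. Both medians moved with single arrays: in PTH-treated mice it was -0.13 without irradiated PTH replicate 3, -0.90 without irradiated PTH replicate 2 and -0.29 without nonirradiated PTH replicate 2, and in vehicle-treated mice it ranged between -0.06, without irradiated vehicle replicate 1, and 0.34, without irradiated vehicle replicate 2.

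Mmp8, neutrophil collagenase, had the smallest p of the members for irradiation. It was at 11.17, 11.92 and 11.04 in irradiated PTH marrow, at 11.44, 11.82 and 11.44 in irradiated vehicle marrow, at 11.98, 12.01 and 11.99 in nonirradiated PTH marrow and at 12.08, 11.90 and 11.95 in nonirradiated vehicle marrow. All 3 irradiated arrays lay below all 3 nonirradiated arrays in both treatments, as 10.9% of all genes did in PTH-treated mice and 9.83% did in vehicle-treated mice. The means were 11.38 ± 0.472 in irradiated PTH marrow and 11.99 ± 0.0163 in nonirradiated PTH marrow (SD, n = 3 each), and 11.57 ± 0.221 in irradiated vehicle marrow and 11.98 ± 0.0922 in nonirradiated vehicle marrow (SD, n = 3 each). The 6 irradiated arrays thus spread more than the 6 nonirradiated arrays, with SDs of 0.346 and 0.0600. The difference was -0.62 in PTH-treated mice (95% interval -1.05 to -0.18, adjusted p = 0.166, limma) and -0.41 in vehicle-treated mice (-0.84 to 0.03, adjusted p = 0.412, limma). Averaged over both treatments, Mmp8 differed by -0.51 (95% interval -0.82 to -0.20, adjusted p = 0.0547, limma), just short of the threshold. It passed in 5 of 21 alternative settings, and without irradiated PTH replicate 2, its highest irradiated value, the averaged difference was -0.65 (adjusted p = 0.00245, limma). Without that array Mmp8 also passed in PTH-treated mice, at -0.89 (adjusted p = 0.00909, limma).

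Camp encodes the precursor of the antimicrobial peptide cathelicidin. It was at 9.74, 10.30 and 10.92 in irradiated PTH marrow, 10.12, 10.24 and 10.61 in irradiated vehicle marrow, 10.73, 11.12 and 10.68 in nonirradiated PTH marrow and 10.89, 10.69 and 10.22 in nonirradiated vehicle marrow. Irradiated PTH replicate 3, the lowest array for Mmp8 and 4 other members, was the highest irradiated array for Camp, and the groups overlapped. The averaged difference was -0.40 (95% interval -0.82 to 0.02, adjusted p = 0.324, limma). Leaving out both arrays with a narrow spread gave -0.64 (adjusted p = 0.0283, limma), so Camp passed the threshold there and, of the other settings run, with array weights alone.

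The other later genes differed little. Ltf encodes lactoferrin, the iron-binding protein of specific granules, and was at 11.36, 11.93 and 11.42 in irradiated PTH marrow, 11.71, 11.73 and 11.67 in irradiated vehicle marrow, 11.78, 11.89 and 11.35 in nonirradiated PTH marrow and 11.61, 11.67 and 11.31 in nonirradiated vehicle marrow. Ngp, a cystatin-like granule protein known from mouse, was at 11.73, 12.08 and 11.90 in irradiated PTH marrow, 11.82, 12.03 and 12.02 in irradiated vehicle marrow, 12.00, 12.14 and 11.94 in nonirradiated PTH marrow and 12.02, 11.87 and 11.55 in nonirradiated vehicle marrow. Both genes overlapped between irradiated and nonirradiated arrays, and their averaged differences were 0.03 for Ltf and 0.01 for Ngp. Lcn2 encodes lipocalin-2, which binds bacterial iron carriers, and was at 12.39, 12.62 and 11.64 in irradiated PTH marrow, 12.58, 12.64 and 12.44 in irradiated vehicle marrow, 12.47, 12.63 and 12.36 in nonirradiated PTH marrow and 12.27, 12.39 and 12.37 in nonirradiated vehicle marrow. In vehicle-treated mice every irradiated array was above every nonirradiated array for Lcn2, as for 8.95% of all genes, with a difference of 0.21 (adjusted p = 0.724, limma). In PTH-treated mice the difference was -0.27, and without irradiated PTH replicate 3, the lowest of the 12 arrays, it was 0.02.

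Cebpe was at 7.997, 8.44 and 7.90 in irradiated PTH marrow, 8.54, 8.18 and 8.38 in irradiated vehicle marrow, 8.34, 9.04 and 8.10 in nonirradiated PTH marrow and 7.77, 8.29 and 8.27 in nonirradiated vehicle marrow. The groups overlapped in each contrast. Irradiation differed by -0.38 in PTH-treated mice (adjusted p = 0.535, limma) and by 0.25 in vehicle-treated mice (adjusted p = 0.716, limma).

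PTH was compared with vehicle in each irradiation state, and the 2 contrasts share no arrays. In irradiated mice 0 of 10 members were called by limma, where 0.0% of all genes were called, and at an unadjusted p under 0.05 the members numbered 0 (3.81% of all genes). No member separated PTH from vehicle arrays there without overlap, as 5.48% of all genes did upwards and 4.25% downwards. In nonirradiated mice 0 of 10 members were called by limma, where again 0.0% of all genes were called, and at an unadjusted p under 0.05 the members numbered 0 (1.79% of all genes). No member was without overlap there either, against 3.21% of all genes upwards and 3.62% downwards. The estimates leaned opposite ways: in irradiated mice 9 of 10 were negative, with a median of -0.21, and in nonirradiated mice 10 of 10 were positive, with a median of 0.29, while the median of all genes was 0.01 in each contrast. The members are correlated with each other across arrays, so these counts are not counts of independent genes. The values moved with single arrays and with a sex term. With 1 irradiated array left out the median in irradiated mice ranged between -0.44, without irradiated PTH replicate 2, and -0.05, without irradiated PTH replicate 3, where 7 of 10 were negative. With 1 nonirradiated array left out the median in nonirradiated mice ranged between 0.09, without nonirradiated PTH replicate 2, and 0.41, without nonirradiated PTH replicate 3. With a sex term 7 of 10 were positive in nonirradiated mice. That term rests on irradiated arrays alone and cannot separate sex from PTH here. The primary genes had medians of -0.30 in irradiated mice and 0.49 in nonirradiated mice, and the later genes had medians of -0.13 in irradiated mice and 0.15 in nonirradiated mice. The primary median in irradiated mice turned to 0.12 without irradiated PTH replicate 3, and was -0.06 without irradiated vehicle replicate 1 and -0.65 without irradiated PTH replicate 2. In nonirradiated mice it was 0.08 without nonirradiated PTH replicate 2 and -0.01 with a sex term. Same-numbered irradiated PTH and irradiated vehicle arrays deviated together, and they also shared the sex pattern, which was female in replicate 1 of both groups. When these arrays were fitted in number-matched pairs 0 members passed (smallest adjusted p = 0.551, limma), where 1 of 19938 genes was called.

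Single members had wide intervals for PTH. Elane differed by -0.47 in irradiated mice (95% interval -1.26 to 0.32) and by 0.47 in nonirradiated mice (-0.32 to 1.26). Mpo differed by -0.36 in irradiated mice (-1.20 to 0.47) and by 0.52 in nonirradiated mice (-0.32 to 1.36). Without irradiated PTH replicate 3 the sign turned for Mpo in irradiated mice, at 0.15, and for Ctsg, at 0.09, against -0.24 with all arrays. The difference between the PTH responses in irradiated and nonirradiated mice was tested as an interaction, in which 0 of 10 members were called, as were 0.0% of all genes. It was largest for Elane, at -0.95 (95% interval -2.06 to 0.17, adjusted p = 0.732, limma), and for Mpo, at -0.89 (-2.07 to 0.30, adjusted p = 0.732, limma). At an unadjusted p under 0.05 the members numbered 0, against 5.49% of all genes.

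**Figure D2:**
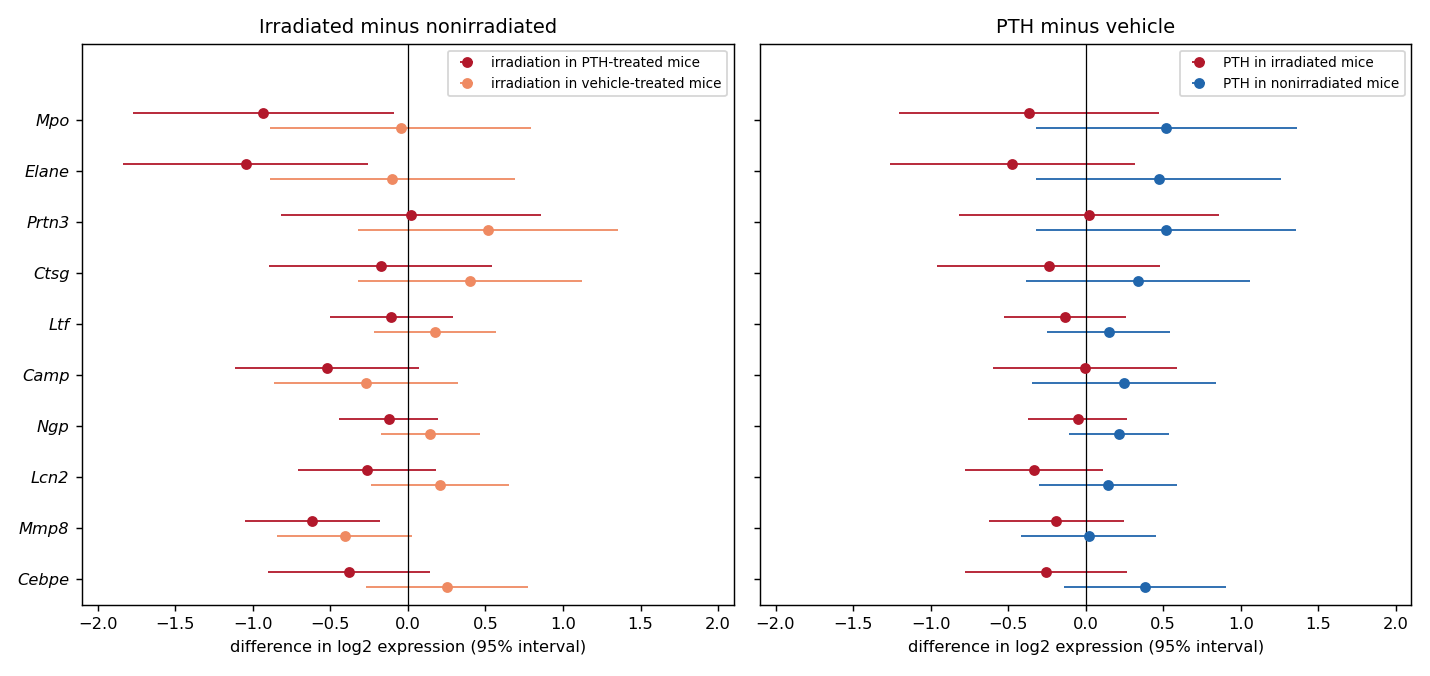
Differences in log2 expression of the 10 genes with 95% intervals, for irradiation in each treatment (left) and for PTH in each irradiation state (right). Intervals that leave out 0 are those of Mpo, Elane and Mmp8 for irradiation in PTH-treated mice, and in the right panel the irradiated and nonirradiated points lie mostly on opposite sides of 0 with intervals that all span it.

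To set primary against later genes, each gene was centred on its mean over the 12 arrays and averaged over the 4 primary or the 5 later genes. The primary mean was -0.15, 0.40 and -0.90 in irradiated PTH marrow, 0.58, -0.28 and -0.16 in irradiated vehicle marrow, 0.03, 0.98 and -0.06 in nonirradiated PTH marrow and -0.26, 0.12 and -0.30 in nonirradiated vehicle marrow. The later mean was -0.36, 0.13 and -0.25 in irradiated PTH marrow, -0.11, 0.05 and -0.00 in irradiated vehicle marrow, 0.15, 0.32 and 0.03 in nonirradiated PTH marrow and 0.13, 0.07 and -0.16 in nonirradiated vehicle marrow. Primary genes spread over a wider range than later genes, and neither mean separated any group from another. The later minus primary difference changed with irradiation by 0.20 in PTH-treated mice and by -0.22 in vehicle-treated mice, so its average of -0.0095 is a sum of opposite estimates. With 1 array left out it ranged between -0.09 and 0.37 in PTH-treated mice, between -0.42 and 0.08 in vehicle-treated mice and between -0.157 and 0.145 in the average. With PTH it changed by 0.121 in irradiated mice (-0.187 to 0.319 with 1 array left out) and by -0.31 in nonirradiated mice (-0.44 to -0.05 with 1 array left out). Of these 5 differences, the last kept its sign with each array left out, and a sex term turned it to 0.35. That term rests on irradiated arrays alone and cannot separate sex from PTH in nonirradiated mice. The other 4 turned sign when some single array was left out. These are descriptions, with no test.

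**Figure D3:**
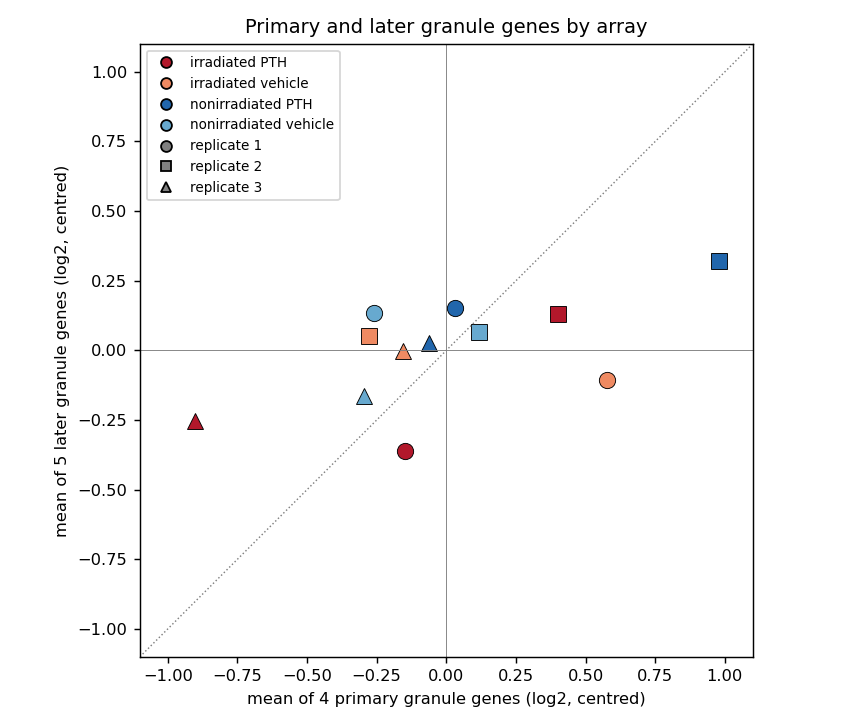
Mean of the 5 later granule genes against mean of the 4 primary granule genes on each array, in log2 units centred on each gene's mean over the 12 arrays, with colour for the group, symbol shape for the replicate number and a dotted line of equality. The arrays spread from -0.90 to 0.98 along the primary axis and from -0.36 to 0.32 along the later axis, and the 4 groups overlap.

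The primary genes varied between arrays of the same group more than nearly all other genes. Their pooled within-group SDs were 0.560 for Mpo, 0.525 for Elane, 0.559 for Prtn3 and 0.474 for Ctsg, larger than those of 94.5% to 97.3% of all genes, whose median was 0.206. Of the later genes, Camp had 0.384 and Ngp only 0.170, smaller than that of most genes. The primary genes also moved together within groups: over their 6 pairs, correlations of the deviations from group means lay between 0.757 and 0.934, with a median of 0.909. Leaving out irradiated PTH replicate 3 gave 0.901 to 0.949. The 10 pairs of later genes lay between -0.551 and 0.740, with a median of 0.528, the lowest being that of Camp with Lcn2, and without irradiated PTH replicate 3 between 0.232 and 0.927. The 20 pairs of a primary with a later gene had a median of 0.371. They lay between -0.373 (Mpo with Camp) and 0.888 (Mpo with Lcn2). Lcn2 correlated with the 4 primary genes at 0.552 to 0.888. Cebpe correlated with the 4 primary genes at 0.687 to 0.876 and with the 5 later genes at 0.0066 to 0.587. These are descriptions over 12 arrays that share groups, depth of signal and sex patterns with each other. A single array, nonirradiated PTH replicate 2, was the highest of the 12 for 7 members, and irradiated PTH replicate 3 was the lowest for 5. The same arrays were the opposite extremes of the first principal component over all genes, at 32.4 and -66.3.

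Other genes followed the same profiles. The genes most like the primary mean over the 12 arrays were F10 (Pearson r of 0.969), which encodes coagulation factor X, Def6 (0.952), Cotl1 (0.946), Plppr3 (0.943) and Tgfbi (0.933), and 28 genes had an r over 0.9. In the reference table of gene order Plppr3 is the neighbour of Prtn3, so Plppr3, Prtn3 and Elane are consecutive genes. The genes most like the later mean were Pilrb1 (0.920), Dhrs7 (0.894), Plaur (0.889), which encodes the urokinase receptor, Rnf24 (0.872) and Klf6 (0.871), and 1 gene had an r over 0.9. The primary profile was thus shared by more genes at that level than the later profile. The later mean also followed its own members less closely, with r of 0.513 (Lcn2) to 0.793 (Mmp8). For the primary mean these lay at 0.822 (Prtn3) to 0.929 (Ctsg). Each mean holds its own members, which raises these r. The later mean followed the primary genes at 0.318 (Prtn3) to 0.663 (Mpo). The primary mean followed the later genes at 0.0485 (Camp) to 0.757 (Lcn2).

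Members were also set against each other within arrays, as the difference of their log2 values, which removes what an array adds to both. Such a difference holds the response of each probe set, so only its change between groups can be read. Of the 45 pairs of members, 5 (11.1%) had no overlap between the 6 irradiated and the 6 nonirradiated arrays, against 5.59% of all pairs of genes on the array. These 5 were picked after their values were seen and no test was made. Prtn3 minus Elane was -0.75, -0.55 and -0.18 in irradiated PTH marrow, -0.94, -0.82 and -1.20 in irradiated vehicle marrow, -1.52, -1.30 and -1.86 in nonirradiated PTH marrow and -1.51, -1.60 and -1.71 in nonirradiated vehicle marrow. Every irradiated array was thus above every nonirradiated array, with means of -0.74 ± 0.348 in irradiated and -1.58 ± 0.190 in nonirradiated marrow (SD, n = 6 each), although the genes are neighbours and correlated at 0.913 within groups.

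Ctsg minus Elane had means of 1.45 ± 0.148 in irradiated and 0.76 ± 0.240 in nonirradiated marrow (SD, n = 6 each), with ranges of 1.28 to 1.62 and 0.59 to 1.21. Ctsg minus Mpo had means of -0.15 ± 0.226 in irradiated and -0.76 ± 0.203 in nonirradiated marrow (SD, n = 6 each). These pairs were picked for their separation, which therefore shows nothing beyond the values. The other such pairs set Mmp8 against Ltf and Ngp: Ltf minus Mmp8 had means of 0.16 ± 0.173 in irradiated and -0.38 ± 0.231 in nonirradiated marrow, and Ngp minus Mmp8 had means of 0.46 ± 0.261 in irradiated and -0.07 ± 0.179 in nonirradiated marrow (SD, n = 6 each). Against all other genes on the array, Mmp8 was lower in every irradiated than in every nonirradiated array for 11.9% and higher for 0.346%, and each other member separated from less than 5.59% of genes, both directions together.

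**Figure D4:**
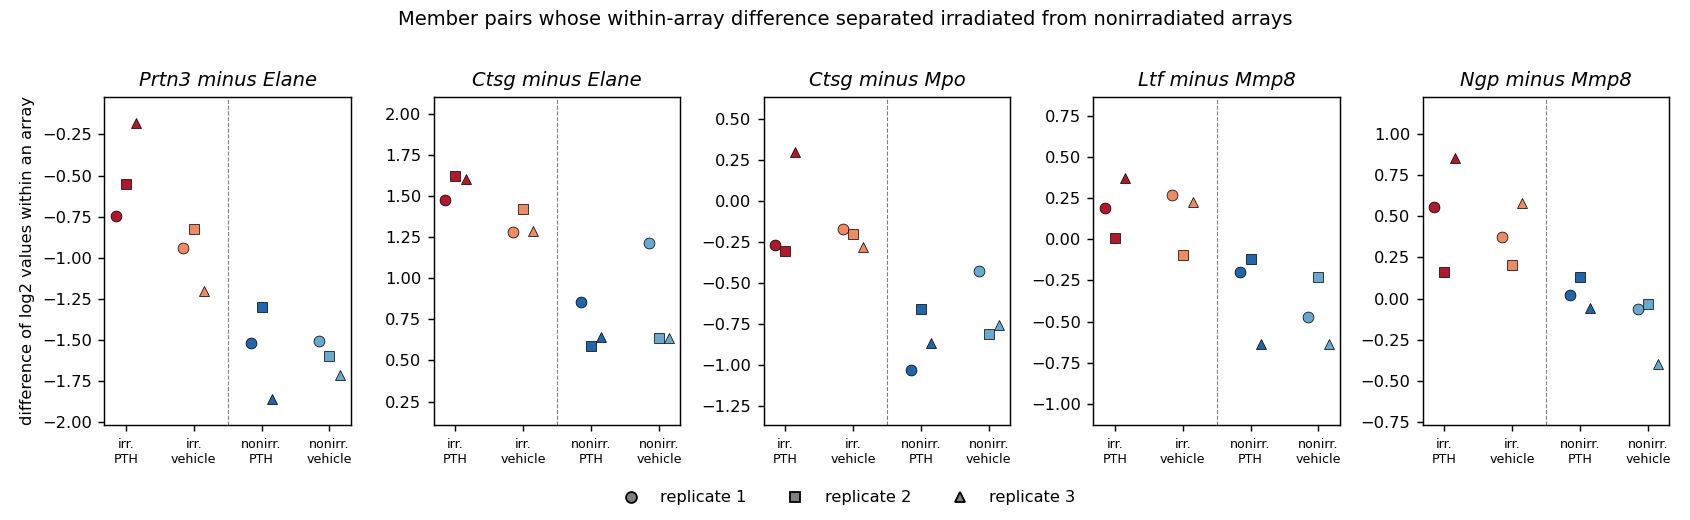
Difference of log2 values of 2 granule genes within each array, for the 5 of 45 pairs without overlap between irradiated arrays (left of the dashed line) and nonirradiated arrays (right of it), with symbol shape for the replicate number. Prtn3 minus Elane, for example, lies between -1.20 and -0.18 on irradiated arrays and between -1.86 and -1.30 on nonirradiated arrays; the pairs were picked for this pattern.

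Other genes of the same lineage were read from 4 lists with 47 entries, of which 44 were measured and the rest were not analysed here. Averaged over both treatments, limma called 11 of the 44 for irradiation, 3 higher and 8 lower, where 2.51% of all genes were called higher and 3.59% lower. Among 10 other primary granule and promyelocyte genes 0 were called, with a median difference of 0.08. Those with the smallest p were Ctsc, which encodes the protease that activates the azurophil serine proteases, at 0.42 (adjusted p = 0.0526, limma), Serpinb1a, an inhibitor of those proteases, at 0.36 (adjusted p = 0.243, limma), and Ms4a3, a marker of granulocyte-monocyte progenitors, at 0.57 (adjusted p = 0.259, limma).

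Of 10 other specific granule genes, Hp and Ptx3 were called higher and Olfm4 and Slpi lower. Hp, which encodes haptoglobin, was at 10.94, 10.88 and 10.04 in irradiated PTH marrow, 11.43, 11.20 and 11.36 in irradiated vehicle marrow, 9.60, 10.44 and 10.03 in nonirradiated PTH marrow and 9.69, 9.72 and 8.94 in nonirradiated vehicle marrow. The PTH groups overlapped by 1 array and the vehicle groups did not. Averaged over both treatments, Hp rose by 1.24 (adjusted p = 0.00262, limma). Fat cells also make haptoglobin, and the mean of 4 adipocyte markers lay at 8.59 to 8.98 in irradiated PTH marrow, 9.37 to 9.51 in irradiated vehicle marrow, 7.46 to 7.81 in nonirradiated PTH marrow and 7.62 to 7.89 in nonirradiated vehicle marrow, with all 4 called higher. Their part in the Hp difference was not tested. Olfm4, a marker of a subset of neutrophils, was at 7.70, 8.52 and 8.25 in irradiated PTH marrow, 8.02, 8.31 and 8.99 in irradiated vehicle marrow, 10.02, 9.83 and 9.66 in nonirradiated PTH marrow and 10.00, 9.53 and 8.75 in nonirradiated vehicle marrow. It fell by 1.33 (adjusted p = 0.00386, limma), with 1 irradiated vehicle array above the lowest nonirradiated vehicle array. Slpi, an inhibitor of neutrophil elastase and cathepsin G, fell by 0.92 (adjusted p = 0.0126, limma). Ptx3, a pattern-recognition protein stored in specific granules, rose by 0.70 (adjusted p = 0.0498, limma), but it kept its call in 8 of 21 alternative settings and lost it when any 1 of 9 arrays was left out.

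Of 12 measured gelatinase granule and mature neutrophil genes, 3 fell and 1 rose. Cxcr4, the receptor that holds neutrophils and B-cell precursors in marrow, was at 9.05, 8.97 and 8.96 in irradiated PTH marrow, 9.12, 9.07 and 9.12 in irradiated vehicle marrow, 9.66, 9.90 and 9.84 in nonirradiated PTH marrow and 9.69, 9.64 and 9.81 in nonirradiated vehicle marrow. No irradiated array overlapped a nonirradiated one, and Cxcr4 fell by 0.71 (adjusted p = 0.000161, limma). Ly6g, the surface marker of mouse neutrophils, was at 9.05, 10.05 and 8.10 in irradiated PTH marrow, 9.69, 10.26 and 10.01 in irradiated vehicle marrow, 10.76, 11.30 and 10.77 in nonirradiated PTH marrow and 10.72, 10.47 and 10.18 in nonirradiated vehicle marrow. It fell by 1.17 (adjusted p = 0.0212, limma), a call that was lost without replicate 1 or 3 of the irradiated vehicle group or replicate 2 of the nonirradiated PTH group (adjusted p = 0.0508 to 0.0594, limma). Trem1, an activating receptor of neutrophils and monocytes, fell by 0.55 (adjusted p = 0.00578, limma), and Il1r2, the interleukin-1 decoy receptor, rose by 0.91 (adjusted p = 0.0154, limma). Over the 12 genes, 8 differences were negative, with a median of -0.41 against -0.01 over all genes. Of those that did not pass, Retnlg, which encodes a resistin-like protein of myeloid cells, was at 9.48, 10.80 and 11.23 in irradiated PTH marrow, 9.67, 10.75 and 10.60 in irradiated vehicle marrow, 11.46, 11.41 and 11.52 in nonirradiated PTH marrow and 11.59, 11.28 and 11.11 in nonirradiated vehicle marrow. Its difference was -0.98 (adjusted p = 0.0560, limma), and it passed with a sex term (adjusted p = 0.000197, limma). Cxcr2, a chemokine receptor of mature neutrophils, differed by -0.37 (adjusted p = 0.121, limma) and also passed with a sex term (adjusted p = 0.0247, limma).

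Of 12 regulators of granulopoiesis, 3 fell. Csf3r, the receptor for granulocyte colony-stimulating factor, was at 7.39, 7.93 and 6.75 in irradiated PTH marrow, 7.94, 7.79 and 7.78 in irradiated vehicle marrow, 9.07, 9.24 and 8.90 in nonirradiated PTH marrow and 8.45, 8.97 and 8.42 in nonirradiated vehicle marrow. All 6 irradiated arrays lay below all 6 nonirradiated arrays, as for 2.8% of all genes, and Csf3r fell by 1.25 (adjusted p = 0.00112, limma). Myb, a transcription factor of haematopoietic progenitors, fell by 1.20 (adjusted p = 0.000315, limma), and Lef1, a transcription factor of progenitors and lymphocytes, fell by 1.25 (adjusted p = 0.00265, limma). Cxcr4, Myb and Lef1 are also expressed in B-cell precursors. The mean of 6 B-lineage markers lay at 7.11 to 7.52 in irradiated PTH marrow, 7.51 to 7.91 in irradiated vehicle marrow, 9.59 to 9.86 in nonirradiated PTH marrow and 9.40 to 9.86 in nonirradiated vehicle marrow, and its part in these differences was not tested. The mean of 5 measured monocyte markers lay at 8.09 to 8.81 in irradiated PTH marrow, 8.32 to 8.71 in irradiated vehicle marrow, 8.83 to 9.30 in nonirradiated PTH marrow and 8.78 to 9.16 in nonirradiated vehicle marrow. The regulators Cebpa, Cebpb, Cebpd, Gfi1, Spi1, Runx1, Klf5, Csf3 and Irf8 did not pass.

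**Figure D5:**
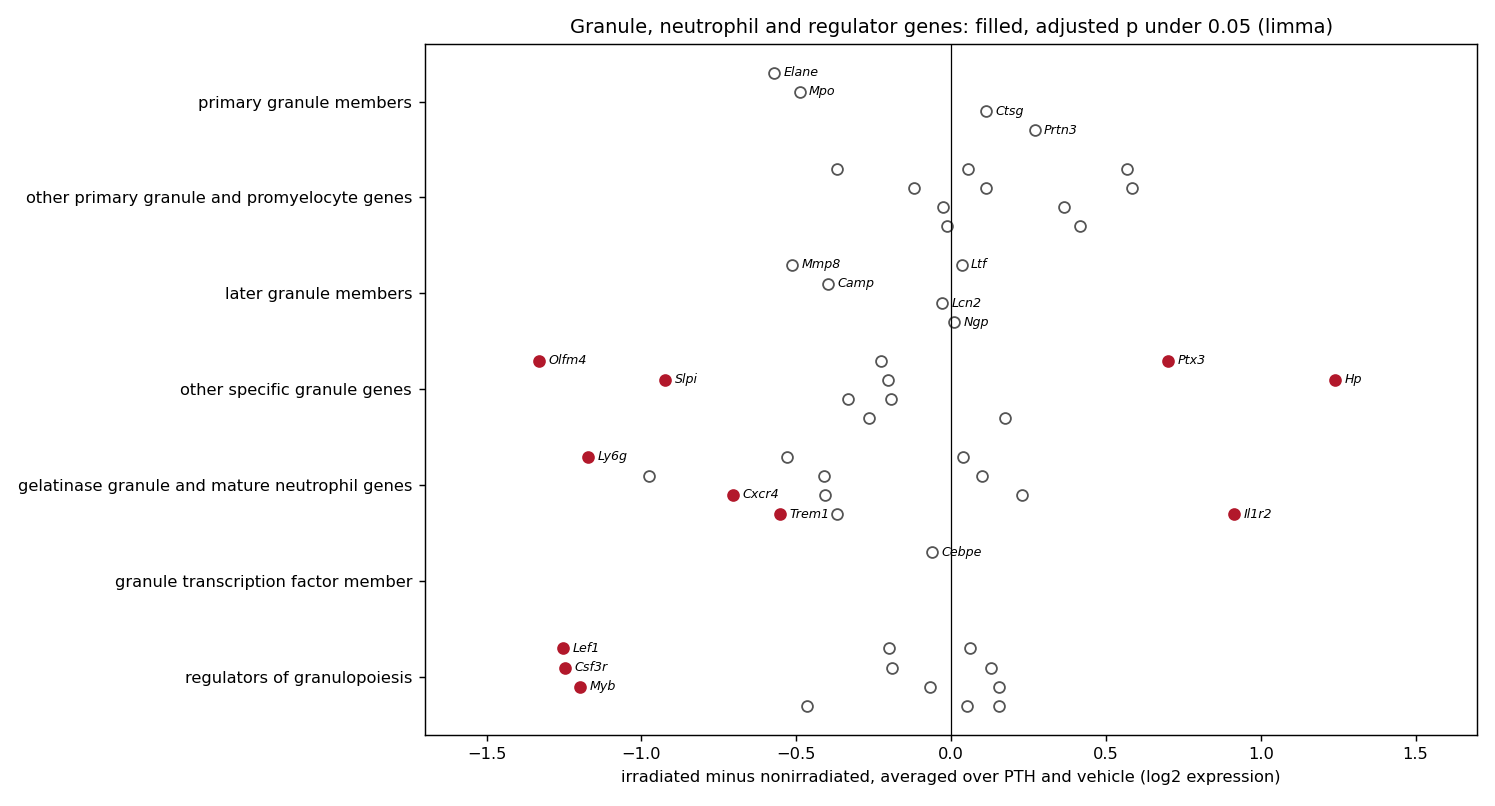
Difference in log2 expression between irradiated and nonirradiated marrow, averaged over both treatments, for each measured gene of the granule, neutrophil and regulator lists, with 1 circle per gene. Filled circles mark the 11 genes with an adjusted p under 0.05, none of them a primary granule gene of either list or 1 of the 10 members.

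Within single treatments the lists gave fewer calls. In PTH-treated mice 8 of the 44 genes were called lower by limma and 0 higher (1.74% and 0.692% of all genes): Csf3r by 1.72, Ly6g by 1.88, Olfm4 by 1.68, Lef1 by 1.62, Slpi by 1.38, Myb by 1.28, Cxcr4 by 0.80 and Trem1 by 0.74, as sizes of the fall on the log2 scale. Csf3r and Cxcr4 kept this call with each array left out. The calls of Olfm4, Slpi and Ly6g were each lost without irradiated PTH replicate 1 or without any 1 of the 3 nonirradiated PTH arrays, that of Trem1 without irradiated PTH replicate 1 or nonirradiated PTH replicates 1 or 2, and that of Lef1 without nonirradiated PTH replicate 1. A term for the sex pattern ended the calls of Slpi, Ly6g, Trem1, Myb and Lef1 in PTH-treated mice, with adjusted p between 0.0600 and 0.111 (limma), and added a call of Retnlg (adjusted p = 0.00253, limma). In vehicle-treated mice Hp rose by 1.88, and Cxcr4 fell by 0.61 and Myb by 1.12 (1.21% of all genes were called higher and 1.01% lower). Of these, Cxcr4 lost its call without irradiated vehicle replicate 2, and Myb lost it without replicate 2 or 3 of either vehicle group. For PTH 0 of the 44 genes passed in irradiated or in nonirradiated mice. The smallest p in irradiated mice were those of Ptx3, at 0.73 (unadjusted p = 0.0187), Hp, at -0.71 (unadjusted p = 0.0280), and Ly6g, at -0.92 (unadjusted p = 0.0309), all with an adjusted p of 0.844 in limma.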

How the data were processed

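Per the labels' protocols, Trizol flushes of long bones gave total RNA, which was amplified and labelled for whole-transcript arrays. The deposited log2 values are the authors' own, and the submitters' processing notes name affy, RMA and limma without versions or roles. The log2 scale was read from the values. The sources used here give neither the build behind the rows nor whether the arrays were normalized together.

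Of 35556 rows, 21789 had exactly 1 gene symbol in the platform annotation, and these covered 19938 genes. Where a gene had several rows, as 999 did, its brightest row was used. A model of 4 group means over all 12 arrays was fitted in limma 3.58.1 (R 4.3.3) with default empirical Bayes moderation, after a check on simulated data, and p-values were adjusted over all genes.

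The members and lists were chosen with earlier results of these data known. All 10 members are named. Of the 4 other lists, every gene past the threshold in a contrast is named, and otherwise at most the 3 with the smallest p. The 5 genes most like each profile are named, with predicted genes and the like passed over. The regulators that did not pass were named after their values were seen.

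Alternatives were the variance model, array weights, repeated quantile normalization, median centring, a filter on low mean values, mean rows, only the groups compared, the replicate number as a block, a sex term, the fit without both arrays of narrow spread, and each array left out. Those for the lists were added after seeing the data. No label states that a replicate number pairs arrays. Deviations of same-numbered arrays correlated at 0.144 to 0.570 between irradiated PTH and irradiated vehicle, over 0.1 in 3 of 3 pairs. For PTH in irradiated mice a block within these groups was therefore added after seeing the data. Same-numbered arrays of these groups also shared the sex pattern, which was female in replicate 1 of both. Arrays of these groups with unlike numbers correlated at -0.509 to 0.396. In each of the other comparisons between groups at least 1 of 3 pairs was at or under 0.1 (-0.651 to 0.596), and these were not treated as pairs.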

Additional observations from a re-analysis of the deposited data

How the results depend on the processing

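Over 60 differences of members (10 genes in 6 contrasts), 1301 of 1310 alternative values stayed on the same side of the threshold, and 9 passed it. For irradiation averaged over both treatments, where 0 members passed, 1 passed with array weights (Camp, adjusted p = 0.0209, limma), 1 with repeated quantile normalization (Mmp8), 1 without genes of low mean value (Mmp8), 1 with a sex term (Mmp8), 1 without both arrays of narrow spread (Camp) and 1 with the replicate number as a block (Mmp8, adjusted p = 0.0377, limma). Leaving out 1 array gave 0 to 1, the call being that of Mmp8 without irradiated PTH replicate 2. In PTH-treated mice, array weights gave 1 (Camp) and leaving out 1 array gave 0 to 1. The shares of all genes called in these settings are not given here, so these member calls are not set against all genes. For the other granule and neutrophil genes, 3 were called in vehicle-treated mice, against 6 with array weights, 1 with only the groups compared and 1 to 5 with 1 array left out. In PTH-treated mice 8 were called, against 4 with a sex term (5 lost, Retnlg gained), 5 with only the groups compared and 3 to 9 with 1 array left out. Array weights there kept all 8 calls and added Hp, Ptx3 and Il1r2 as higher and Retnlg as lower. Averaged over both treatments, Il1r2 lost its call without both arrays of narrow spread (adjusted p = 0.0520, limma) and Ptx3 with the replicate block (adjusted p = 0.0559, limma). The later minus primary difference moved with a sex term to -0.24 for irradiation in PTH-treated mice, against 0.20, and to 0.35 for PTH in nonirradiated mice, against -0.31. No label pairs the arrays by replicate number. For PTH in irradiated mice, where same-numbered arrays deviated together, a block in these groups alone gave 0 member calls and 0 list calls. This block so changed no call of a member or list gene for PTH in irradiated mice. Of all 19938 genes it called 1, where the main fit called 0. The cause of these changes was not tested. Of the 60 member differences, 24 turned sign under at least 1 alternative, none of them called.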
